A study of Homo sapiens with 10 samples.

Results

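HEK293T cells, a human embryonic kidney line, that had received the VPR activator were compared with cells of a guide-only control. The comparison takes 4 of the 10 poly(A) RNA libraries of the study, VPR libraries 1 and 2 and guide-only libraries 1 and 2, chosen by their titles. All 10 libraries served to estimate the spread, including pairs from cells given the VP64, SAM or Suntag activators. By the study's design, cells with an activator also carried a guide RNA directed at HBG1, a fetal globin gene. The guide-only title names no activator, and the target of its guide is not spelled out there. All libraries share the HEK293T line and transfection with Lipofectamine 2000. Nothing in the labels says whether replicates came from separate transfections, so p-values measure the spread between libraries, which may be technical. The share of cells that took up the plasmids, the time of harvest and the guide sequence are not given in the sources used here.

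VPR is built on Cas9 without nuclease activity, which a guide RNA brings to a promoter without cutting it. Its activation part joins VP64, made of repeats of a herpesvirus activation peptide, to the activation domains of p65, a subunit of NF-kB, and of Rta, an Epstein-Barr virus activator. Such domains recruit cofactors of RNA polymerase II, and the question a whole-transcriptome comparison answers is which other RNAs differ when the activator is present. The files identify genes as numbered clusters of transcripts, without names. Of the 82960 transcript identifiers, 3 were found in the gene tables used here, and 0 of the clusters they belong to were tested. HBG1, its near copy HBG2, NF-kB targets, stress genes and cell type markers were therefore not analysed here, so neither the targeted gene nor the identity of the cell line was checked. Clusters are described by length, number of transcripts and level, and 4 are identified by number.

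The VPR libraries held 5049833 and 7447949 expected counts, which are RSEM's estimated read counts, and the guide-only libraries held 4659135 and 6072335. An expected count of at least 1 was found for 16330 and 16929 clusters in the VPR libraries and for 16196 and 16596 in the guide-only libraries, of 31848 in the files. Across clusters, replicate libraries correlated at 0.988 in VPR and 0.987 in the control on the log2 scale (Pearson, across clusters that are not independent replicates). Filtering left 13241 clusters for the test. The 100 most abundant clusters took 29.1% and 28.5% of the counts in the VPR libraries, against 26.3% and 25.7% in the guide-only libraries.

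VPR cells showed many small differences and few large ones. In bulk RNA, fewer cells with a transcript and less of it per cell cannot be told apart. With edgeR's quasi-likelihood test at an adjusted p below 0.05, 607 clusters were higher in VPR, 4.58% of those tested, and 267 were lower, 2.02%. Together the 874 calls made up 6.6% of the tested clusters, and 2919 clusters had an unadjusted p below 0.05. The median log2 change of the higher clusters was 0.52 and that of the lower clusters was -0.43. A change of at least 2-fold was found for 28 called clusters, 0.211% of those tested, of which 22 were higher and 6 lower in VPR. Both VPR libraries lay above both guide-only libraries for 3357 clusters, 25.4% of those tested, and below both for 3528, 26.6%, and these include all 874 calls.

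The number of calls changed when 1 library was left out, which also leaves its group with 1 library. Reliance on a library and the loss of a replicate therefore cannot be told apart. Among the compared libraries, the number of calls changed least without VPR library 2. It was 143 without VPR library 1, 178 without guide-only library 2 and 244 without guide-only library 1, and it was 1317 and 1332 without Suntag library 1 or 2. When either Suntag library is left out, the other is fitted exactly, so these settings are nearly the same fit. The 28 calls of at least 2-fold became 17 without VPR library 1, 51 without VPR library 2 and 45 without either Suntag library. On log2(TPM + 1) values with limma, 359 clusters were called and 33.7% of them were higher in VPR, against 69.5% of the 874. On that scale the median log2 change of all clusters was -0.17, against -0.02 on the scale of the count test.

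**Figure D1:**
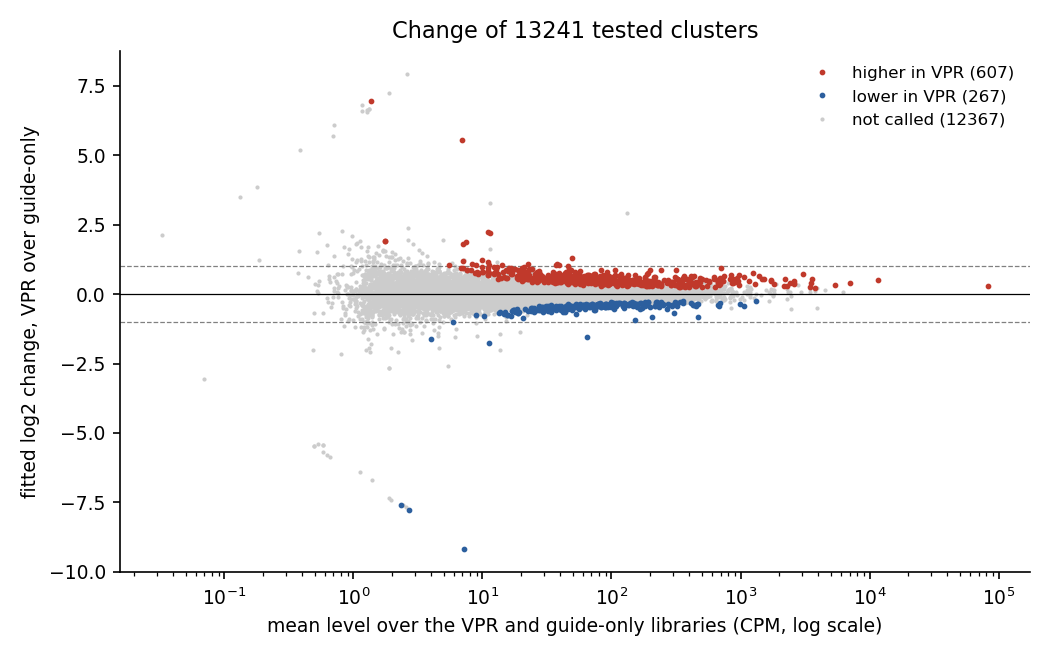
Each point is 1 of 13241 tested clusters, with its mean level over the VPR and guide-only libraries (CPM, log axis) and its fitted log2 change, VPR over guide-only. Red points are the 607 higher and blue points the 267 lower calls, and the dashed lines mark 2-fold, which 28 calls pass.

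Among the largest changes, cluster 4232 had the most support. It spans 870 nt and 4 transcripts, and all of its counts were whole, as reads assigned to 1 cluster alone would give. It had 88 and 75 counts in the VPR libraries, against 0 and 3 in the guide-only libraries. Both VPR libraries were above both control libraries, which the rule for identifying clusters required. Its level in CPM, the counts scaled to a fixed library total, was 13.7 ± 5.20 in VPR and 0.247 ± 0.349 in the control (mean ± SD, n = 2 each). Deposited TPM values, which take length into account, were 49.7 and 29.9 in VPR and 0 and 1.41 in the control. The fitted log2 change was 5.53 ± 0.58 (SE) with an edgeR adjusted p of 0.000327. The ratio of summed counts was 46.7 with a 95% interval of 15.7 to 229, which covers counting error only. It was called in all 10 fits that left out 1 library. The clusters next to it in the list were at or near 0.

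Cluster 4232 did not behave alike under all activators. It had 0 counts in both VP64 libraries, 260 and 295 in the SAM libraries, and 106 and 73 in the Suntag libraries. VPR was 37.7-fold higher than VP64, whose pair of libraries was given a floor of 3 counts in all, and the edgeR adjusted p was 0.00216. This was the single cluster called between VPR and VP64, which is 0.00755% of those tested, with 1144 at an unadjusted p below 0.05. VPR was lower than SAM by a log2 difference of -2.31 with an edgeR adjusted p of 0.000189, where 5.68% of tested clusters were called. Between VPR and Suntag the fitted difference was -0.21 with an edgeR adjusted p of 0.775. That comparison had 0 calls by edgeR, 0% of those tested, and 1761 clusters at an unadjusted p below 0.05.

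The other 3 identified clusters had counts that were not whole, so part of their reads may belong to other clusters. Cluster 26019, of 950 nt and 1 transcript, had 4.92 and 33.2 counts in the VPR libraries, against 0 in both guide-only libraries. Most of its VPR counts came from library 2. It was at least 10.9-fold higher in VPR against a floor of 3 counts for the control pair, with an edgeR adjusted p of 0.0452. This call was lost when either VPR library, either guide-only library or either VP64 library was left out. The cluster 2 places further in the list, of 1835 nt, had 32.2 and 25.9 counts in VPR and 123 and 50.2 in the control, the opposite direction (edgeR adjusted p of 0.0394). Summed, the pair had 37.1 and 59.1 counts in VPR and 123 and 50.2 in the control. Their summed level in CPM was 7.65 ± 0.415 in VPR and 17.4 ± 12.9 in the control (mean ± SD, n = 2 each), so the control libraries differed among themselves by more than the groups did.

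Cluster 26528 led the lower calls. It spans 2705 nt and 2 transcripts and had 0 counts in both VPR libraries, against 84.6 and 65.2 in the guide-only libraries. It was at least 58.2-fold lower in VPR against a floor of 3 counts for the VPR pair, with an edgeR adjusted p of 0.0077. The adjusted p was 0.0671 without VPR library 1, and 0.0514 without VPR library 2 and also without guide-only library 1. Other activators did not share a common level, with 1.6 and 3.68 counts in VP64, 40.1 and 0 in SAM, and 6.72 and 0 in Suntag. Against the control, Suntag was also called lower (edgeR adjusted p of 0.0495), while VP64 (0.086) and SAM (0.296) were not called. No difference of VPR to VP64, SAM or Suntag was called (edgeR adjusted p of 0.731, 0.0526 and 0.586).

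Cluster 12130 spans 2525 nt and 1 transcript. It had 0 counts in both VPR libraries, against 23.3 and 34.7 in the guide-only libraries. It was 22.5-fold lower in VPR against the same floor, and the upper 95% limit of the ratio of summed counts was 0.0564. It was called at an edgeR adjusted p of 0.0131. The adjusted p was 0.0864 without VPR library 1, 0.0753 without VPR library 2 and 0.0746 without guide-only library 2. It had 0 and 20.9 counts in VP64, 17.0 and 23.0 in SAM, and 23.5 and 23.4 in Suntag, and of the differences between VPR and these, only that to SAM was called (edgeR adjusted p of 0.0226, against 0.398 to VP64 and 0.121 to Suntag). The next cluster in the list, of 2321 nt, moved the other way without passing the test. It had 24.1 and 29.0 counts in VPR and 8.79 and 0 in the control, with an edgeR adjusted p of 0.137. The sum of the pair in CPM was 4.34 ± 0.624 in VPR and 6.30 ± 0.832 in the control (mean ± SD, n = 2 each), a count ratio of 0.679 with a 95% interval of 0.465 to 0.989. Whether reads were divided differently within these pairs was not tested.

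**Figure D2:**
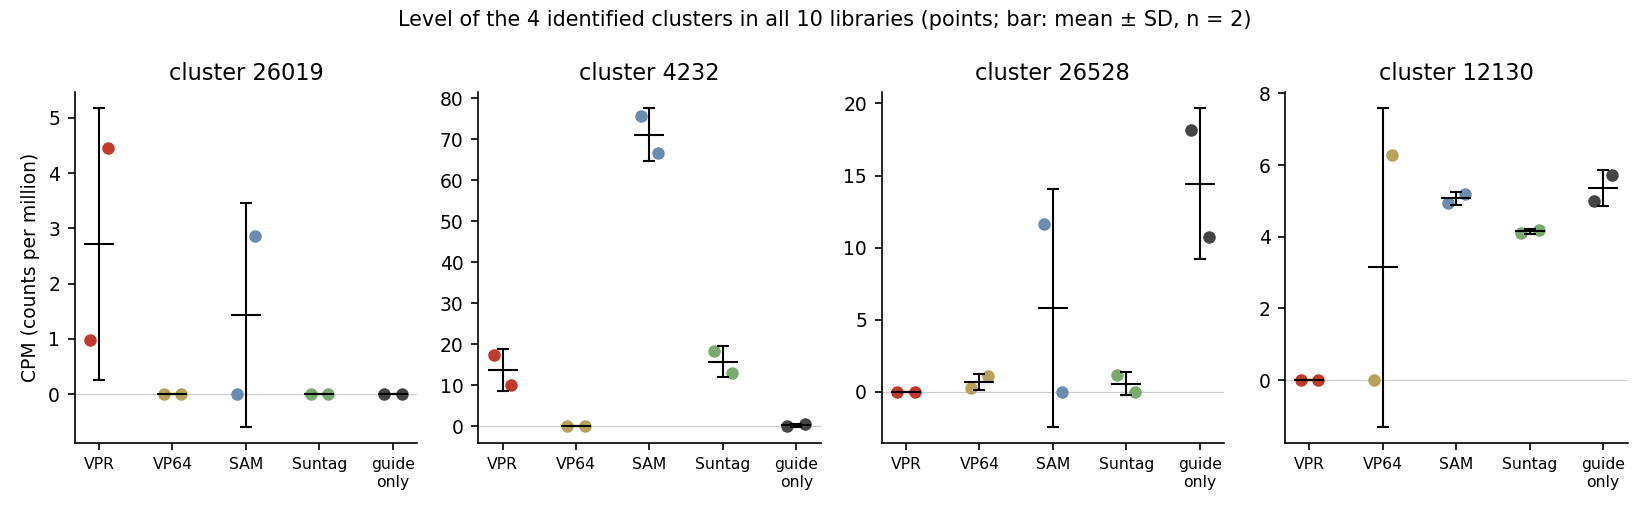
Points give the CPM of each of the 10 libraries for the 4 identified clusters, by group, with the mean and SD (n = 2) as bars. Cluster 4232 lies above 10 CPM in every VPR, SAM and Suntag library and below 1 CPM in the rest, and clusters 26528 and 12130 are at 0 in both VPR libraries.

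The 22 clusters at least 2-fold higher in VPR were mostly short. Their median length was 910 nt, 18 of them were under 1500 nt, 15 had 1 transcript and 7 had whole counts. A cluster of 1445 nt had 98.7 and 122 counts in VPR and 19.0 and 23.8 in the control, a log2 change of 2.22 (edgeR adjusted p of 0.00104). A cluster of 1052 nt had 372 and 482 counts in VPR and 135 and 180 in the control, a log2 change of 1.31 (edgeR adjusted p of 0.00104). Both were called in all 10 fits that left out 1 library. Among clusters with whole counts, one of 692 nt had 337 and 405 counts in VPR and 135 and 202 in the control. Another, of 437 nt, had 86 and 96 in VPR and 34 and 40 in the control. With the length trend removed, these 2 were not called (edgeR adjusted p of 0.0507 and 0.307). The clusters of 1445 and 1052 nt stayed called (edgeR adjusted p of 0.00503 and 0.0114). In each of these 4 clusters both VPR libraries were above both control libraries, as in all 607 clusters called higher, so this adds no support of its own. A pair of 6807 nt clusters in the list had identical counts in all 10 libraries that were not whole, as when shared reads are divided evenly. They are therefore not separate changes. Each had 14.6 and 18.7 counts in VPR and 4.45 and 4.08 in the control. A 6806 nt cluster among the lower calls had 0 in both VPR libraries and 12.5 and 41.0 in the control. Whether reads were divided differently between it and the pair was not tested.

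The 6 clusters at least 2-fold lower in VPR were between 1835 and 6806 nt, and 3 of them were at 0 in both VPR libraries. Of these 6, 0 had whole counts, against 2691 of all 13241 tested clusters. With the length trend removed, 4 of the 6 stayed called. Of the 22 higher clusters, 7 were called in every fit that left out 1 library, and of the 6 lower clusters 0 were. The largest lower change among clusters with whole counts was that of a 4573 nt cluster, with 53 and 94 counts in VPR and 110 and 118 in the control, a log2 change of -0.79 (edgeR adjusted p of 0.018). A 5744 nt cluster with whole counts had 191 and 302 counts in VPR and 306 and 425 in the control, a log2 change of -0.71 (edgeR adjusted p of 0.00286), and was called in all 10 such fits.

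Clusters present in one group and absent in the other were few. With at least 10 summed counts, 21 clusters were at 0 in both guide-only libraries and 22 were at 0 in both VPR libraries. Of the 21 seen in VPR, 8 were found in both VPR libraries, 2 had whole counts and 1 was called. Of the 22 seen in the control, 8 were found in both guide-only libraries, 0 had whole counts and 3 were called. Over all tested clusters, 4.58% were called higher and 2.02% lower. How many of the 21 and 22 passed the filter is not given here, so the shares cannot be set side by side.

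The changes followed transcript length across the whole table. Clusters called higher in VPR had a median length of 1164 nt, those called lower had 5557 nt, and all tested clusters had 2871 nt. Of 248 tested clusters under 700 nt the median log2 change was 0.48, and of 6261 clusters of 3000 nt or more it was -0.13. Under 500 nt, 21 of 66 clusters were called higher (31.8%) and 0 lower. From 700 to 1000 nt, 145 of 500 were called higher (29.0%) and 0 lower. From 2000 to 3000 nt, 73 of 3316 were called higher (2.20%) and 18 lower (0.543%). At 9000 nt or more, 2 of 290 were called higher (0.69%) and 31 lower (10.7%).

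Both VPR libraries showed the same order by length. For clusters under 500 nt, VPR library 1 was 0.51 and VPR library 2 was 0.52 above the control mean (median log2 difference), whereas guide-only library 2 differed from library 1 by -0.03. The pattern was also present in clusters whose counts were whole, with a median log2 change of 0.54 for 46 clusters under 700 nt and -0.13 for 1130 clusters of 3000 nt or more. It remained with an offset of RSEM's effective length, where the median was 0.41 under 700 nt and -0.13 at 3000 nt or more.

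**Figure D3:**
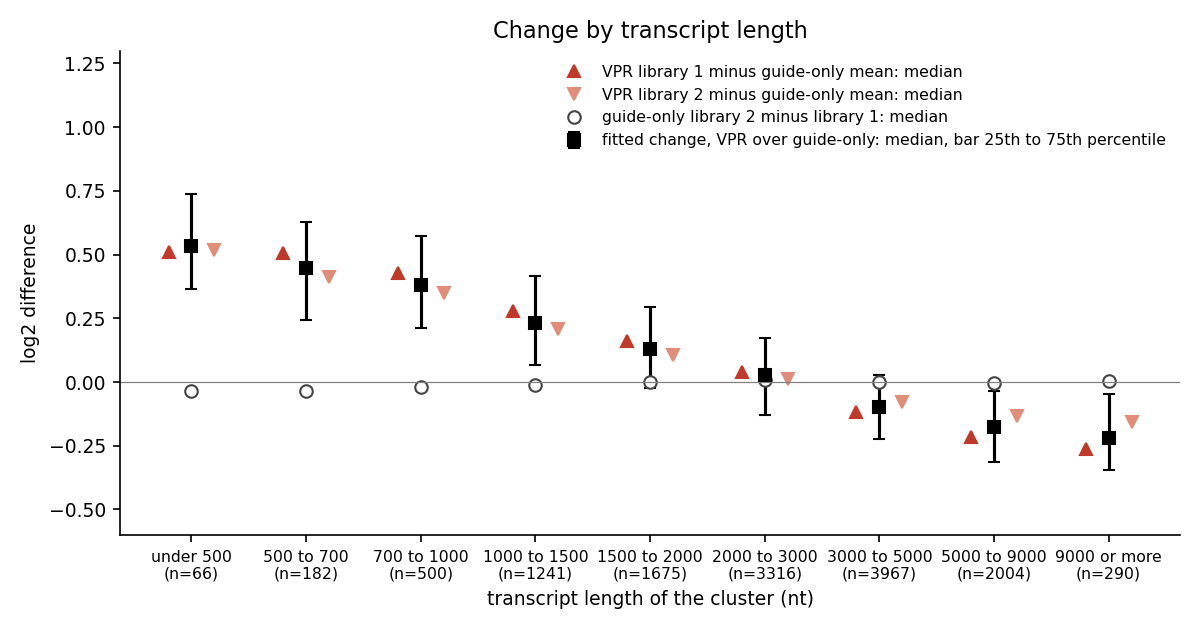
Squares give the median fitted log2 change, VPR over guide-only, by class of transcript length, with bars from the 25th to the 75th percentile. Triangles give the medians of each VPR library against the control mean, and circles those of guide-only library 2 against library 1. The squares go from 0.53 under 500 nt to -0.22 at 9000 nt or more, while the circles stay near 0.

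A value per library was formed as the median log2 deviation from the mean of all libraries under 700 nt minus that at 3000 nt or more. It was 0.36 and 0.22 in the VPR libraries and -0.31 and -0.33 in the guide-only libraries, so the groups did not overlap. The means were 0.29 ± 0.10 in VPR and -0.32 ± 0.02 in the control (SD, n = 2 each), a difference of 0.61. With 2 libraries a group, the smallest p of an exact two-sided permutation test is 0.333. The value was 0.11 and 0.12 in VP64, -0.20 and 0.00 in SAM, and 0.14 and -0.10 in Suntag, all between VPR library 2 and the control libraries.

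In shares of counts, clusters under 700 nt took 3.32% and 3.11% in the VPR libraries, against 2.40% and 2.36% in the guide-only libraries. Clusters of 3000 nt or more took 44.2% and 45.5% in VPR, against 48.1% and 48.5% in the control. By TPM, clusters under 700 nt took 14.8% and 14.3% in VPR, against 12.1% and 11.9% in the control. The mean fragment length, taken as the transcript length less RSEM's effective length, also differed, at 111 and 113 nt in the VPR libraries and 133 and 129 nt in the guide-only libraries. It was 103 and 123 nt in VP64, 116 and 97.5 nt in SAM, and 96.6 and 89.8 nt in Suntag. Beyond the offset of RSEM's effective length given above, the part of fragment length in the length pattern was not tested.

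**Figure D4:**
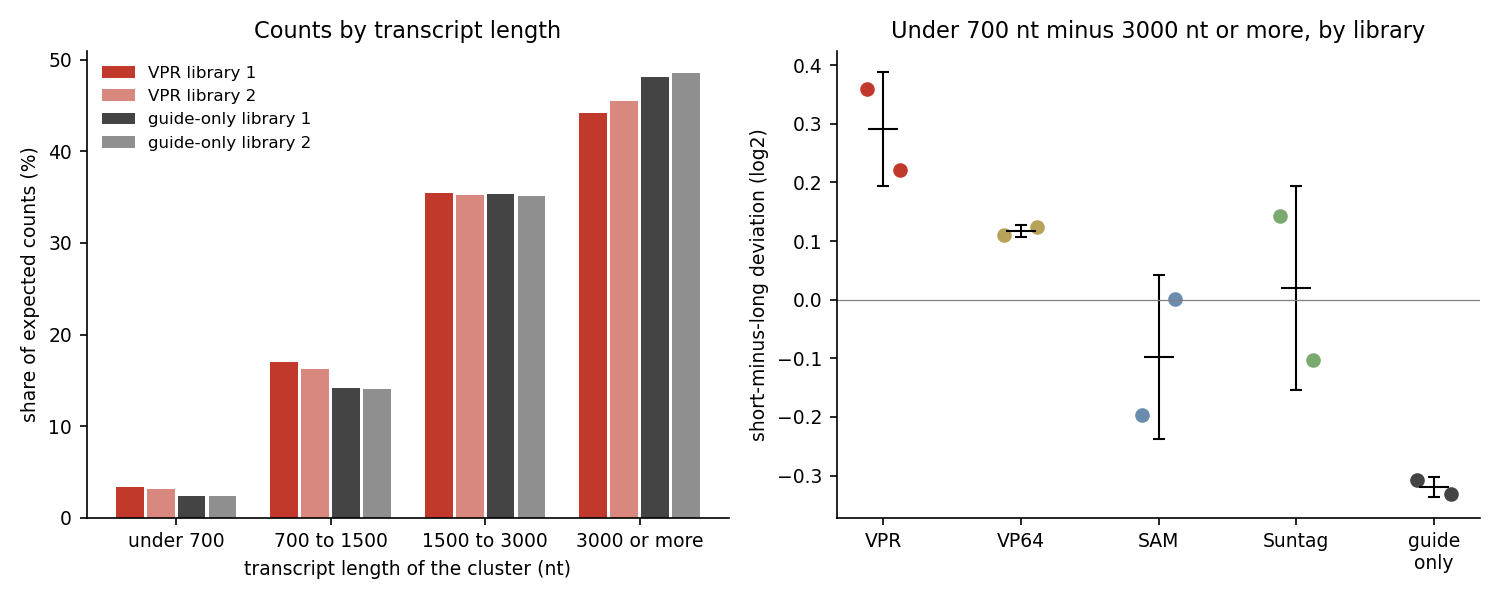
Left, share of expected counts (%) by class of transcript length in each VPR and guide-only library. Right, median log2 deviation under 700 nt minus that at 3000 nt or more for all 10 libraries, with mean and SD (n = 2) per group. The VPR libraries have the highest values, 0.36 and 0.22, and the guide-only libraries the lowest, -0.31 and -0.33.

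How many clusters of a length class were called depended on their level, while the size of the change depended on it less. Under 700 nt, 0 of 34 clusters at 2 to 5 CPM were called higher, with a median log2 change of 0.37. At 100 CPM or more, 34 of 53 such clusters were called higher (64.2%), with a median of 0.47. Among clusters of 3000 nt or more, 2 of 534 at 2 to 5 CPM were called lower (0.375%), with a median of -0.08. At 100 CPM or more, 90 of 929 were called lower (9.69%), with a median of -0.13.

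**Figure D5:**
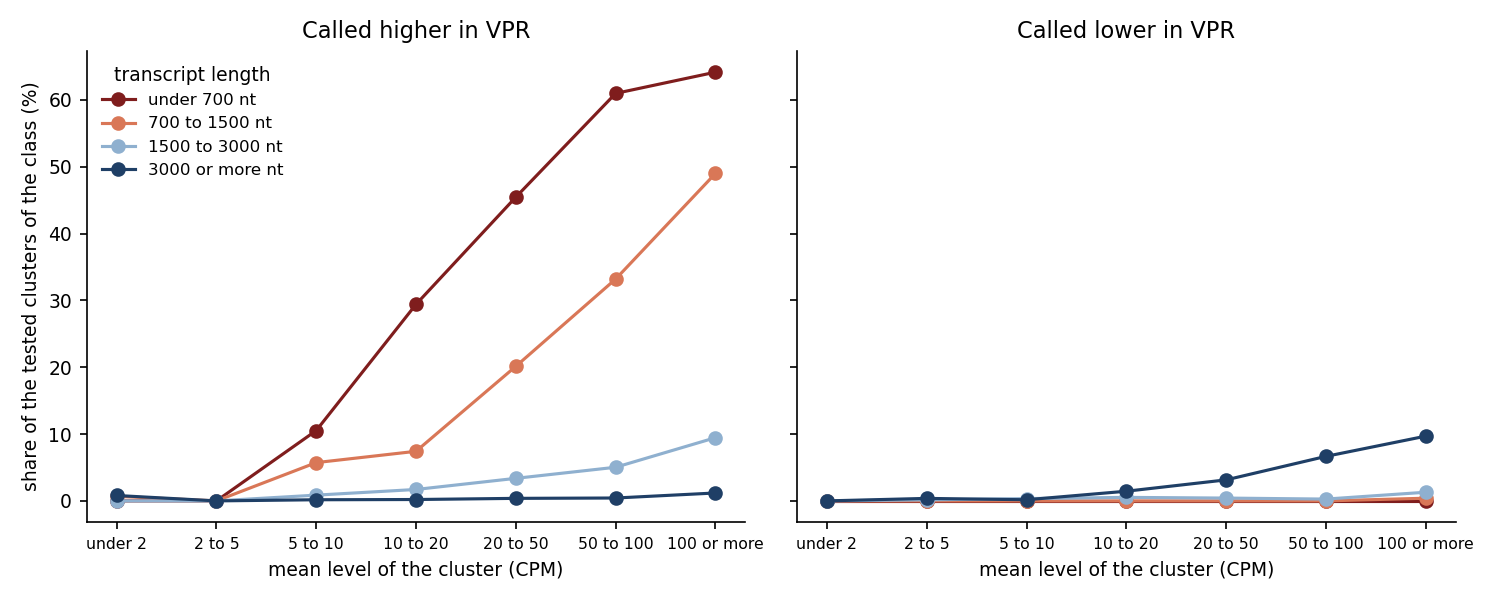
Share of tested clusters called higher (left) or lower (right) in VPR, in percent, against the mean level in CPM, with a line per class of transcript length. The share called higher under 700 nt reaches 64.2% and the share called lower at 3000 nt or more reaches 9.69%, both at 100 CPM or more.

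With each library's trend on length removed before the test, 86 clusters were called, 0.649% of those tested, of which 61 were higher and 25 lower in VPR. Of these, 72 were among the 874 calls made without this step. Over all 86 calls, the median length was 2647 nt for the higher and 1940 nt for the lower clusters. Over the 72 it was 2419 nt for the higher and 2723 nt for the lower clusters. Cluster 4232 remained called, at a log2 change of 5.18 (edgeR adjusted p of 0.00115), and so did clusters 26528 and 12130, at adjusted p of 0.0348 and 0.0496, whereas cluster 26019 was not, at 0.163. The number of calls with the length trend removed also changed when 1 library was left out, and was lower without each VPR or guide-only library. There were 31 without either VP64 library, 42 and 41 without SAM library 1 or 2, and 242 without either Suntag library.

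The calls that held when any library was left out numbered 92, of which 88 were higher and 4 lower in VPR. Of the 88, 76 were under 1500 nt, and their median log2 change was 0.65. With the length trend removed, 25 of the 92 were called as well, 22 higher and 3 lower. A set of 13, with 12 higher and 1 lower, also passed the alternatives that gave an adjusted p, and cluster 4232 is among them. The settings with a minimum of 1.2-fold and with whole counts only were not part of this count.

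Among the 100 most abundant clusters, 35 were higher in VPR, 3 were lower and 62 were not called, with a median log2 change of 0.15 against -0.02 over all tested clusters. Over all tested clusters 4.58% were higher and 2.02% lower, and of the 2003 at 100 CPM or more 240 were higher and 101 lower. Of the 34 under 1500 nt, 22 were higher. The most abundant cluster, of 13513 nt and 1 transcript, was at 90078 and 88132 CPM in the VPR libraries, against 76953 and 78718 CPM in the guide-only libraries. Its log2 change was 0.27 (edgeR adjusted p of 0.0393), and it was called in 5 of the 10 fits that left out 1 library. It was higher in VPR although it belongs to the longest class, in which the median change was -0.22.

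Set against the other activators by length, VPR had a median log2 difference under 700 nt of 0.12 to VP64, 0.27 to SAM and 0.22 to Suntag. At 3000 nt or more the differences were -0.07 to VP64, -0.10 to SAM and -0.06 to Suntag. Against SAM, 472 clusters were higher and 280 lower in VPR. Of the 248 clusters under 700 nt, 34 were higher and 1 lower than in SAM, and of the 6261 of 3000 nt or more, 80 were higher and 220 lower.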

How the data were processed

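Per the submitters' processing notes, RSEM 1.2.1 and the hg19 build were used, with an annotation not given in the sources used here. The authors deposited 1 table per library with 31848 clusters. Per the file headers these hold the expected count, an estimated count that need not be whole because reads fitting several transcripts are divided, the TPM, and the transcript and effective lengths as other values. Per the labels' protocols, libraries were made from random-primed cDNA with a tagmentation kit, so overlapping and antisense genes cannot be told apart.

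Expected counts were rounded and tested with edgeR 4.0.16 in R 4.3.3 (filterByExpr, TMM factors, quasi-likelihood F test). All 10 libraries entered 1 model, with a term for each of the groups, which leaves 5 residual degrees of freedom. P-values were adjusted by Benjamini-Hochberg over the 13241 tested clusters, with a threshold of 0.05. The SE is the size of the log2 change divided by the square root of F. CPM of single clusters uses the summed expected counts, and whole means within 0.01. Ratios of summed counts have exact 95% Poisson intervals, which cover counting error only. For a group at 0, a floor of 3 counts in all stands in. Folds against this floor leave out the counting error of the other group, so they are not lower limits. The length trend was a loess curve (span 0.5) of each library's log2 deviation on log10 length. In simulated libraries with known changes, true calls had the right direction, and false calls made up a larger share of calls than the threshold states.

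Identified clusters are the first called higher and lower by size of change, with a mean of at least 1 CPM and both VPR libraries on the same side of both guide-only libraries, at most 2 a direction since names are lacking. Others were chosen after their values were seen. Alternatives were RLE factors, DESeq2 1.42.0, no filter, the compared groups alone, a replicate block, the length trend or effective length as an offset, whole counts, a minimum of 1.2-fold (glmTreat), limma 3.58.1 on log2(TPM + 1) with a mean TPM of at least 1, and each library left out. Leaving out libraries with the length trend removed was added after seeing the data. The comparison, lists and length classes were chosen with earlier results of these data known.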

Additional observations from a re-analysis of the deposited data

Results flagged for a closer look

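For cluster 4232, the log2 change in VPR differed from that in VP64 and in SAM under the same control. No difference to Suntag was called (-0.21, edgeR adjusted p of 0.775). The difference to VP64 was 9.13 (edgeR adjusted p of 0.00216), fitted against 0 counts in VP64 and so no measure of size. Against the floor, the cluster was 37.7-fold higher in VPR. The difference to SAM was -2.31 (edgeR adjusted p of 0.000189), with 88 and 75 counts in VPR and 260 and 295 in SAM. For cluster 12130 the difference to SAM was -7.65 (edgeR adjusted p of 0.0226), fitted against 0 counts in VPR. Against the floor, cluster 12130 was 21.2-fold lower in VPR. Its differences to VP64 and Suntag, also fitted against 0 counts in VPR, had edgeR adjusted p of 0.398 and 0.121. That cluster's counts were not whole.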

How the results depend on the processing

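The 874 calls became 1388 without a filter on low counts, 86 with the length trend removed, 50 with the replicate block and the length trend removed, 116 with whole counts only, 99 with a minimum of 1.2-fold and 359 with limma on TPM. Leaving out 1 library gave 143 to 1332, with the lone library of its group assumed to vary like the other groups. The count was 884 with RLE factors, 1177 with the compared groups alone, 597 with effective length and 587 with DESeq2. The 28 calls of at least 2-fold became 107 without a filter, 56 with the compared groups alone, 10 with the length trend removed, 9 with the block as well, 11 with whole counts only, 6 with DESeq2, 14 with limma, and 17 to 51 with 1 library left out. The 86 calls became 50 with the replicate block and 6 to 242 with 1 library left out. The setting with whole counts tests 2691 clusters by construction. DESeq2 gave no adjusted p for 167 of the 874 calls, the identified clusters among them, and called 542 of the remaining 707. Calls without an adjusted p are missing from its counts, which is not the same as a failed test. Why the counts moved under the other settings was not tested. The short-minus-long difference stayed between 0.52 and 0.68 under its 7 alternatives.

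Replicate numbers are shared by the groups, but same-numbered VPR and guide-only libraries did not deviate together (r = -0.012 across clusters). This correlation cannot decide whether they were prepared together. With the replicate block alone there were 764 calls. Cluster 4232 was called in 19 of 19 settings with an adjusted p, 26019 in 7 of 17, 26528 in 14 of 18 and 12130 in 13 of 18. These settings leave out the one with a minimum of 1.2-fold. Groups of 2 and totals of 4659135 to 7447949 expected counts limit what can be seen in low clusters.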
